A study of Rattus norvegicus with 6 samples.

Results

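Cytokines, chemokines and the receptors they bind were followed in adrenal glands of rats of the spontaneously hypertensive strain (SHR) and of its usual normotensive comparison strain, Wistar-Kyoto (WKY). Members were the probe sets with exactly 1 annotated gene symbol that begins as an interleukin, a CC, CXC or CX3C chemokine or one of their receptors, a tumour necrosis factor (TNF) family gene, a transforming growth factor beta (TGF-beta) gene or a colony-stimulating factor gene. Tgfbrap1, which encodes a protein associated with a TGF-beta receptor and is neither a cytokine nor a receptor of one, was left out. This gave 97 probe sets for 67 genes, of 8740 probe sets on the array (7006 of them with 1 symbol, for 4736 genes). RNA of 3 SHR and 3 WKY adrenal samples was hybridised to 6 Affymetrix Rat Genome U34 arrays, and the labels give no treatment, age or sex. Nor do they tell whether each sample is a separate animal, so a p-value here rests on the spread among the 3 samples of each strain, which could be technical. The test also draws that spread toward the spread of other probe sets of like intensity.

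Cytokines are secreted or membrane-held proteins that carry signals between cells through receptors on the target cell, and chemokines are the class that directs the migration of leukocytes. Interleukin 18, a cytokine of the interleukin 1 family, is stored as an inactive precursor that caspase-1 cuts, and in the rat its transcript is known from the adrenal cortex, where stress raises it. Cx3cl1 encodes fractalkine, a chemokine held on the cell surface by a mucin-like stalk and known from endothelium and neurons, whose receptor is Cx3cr1. In bulk tissue such as this, fewer cells of a type and less RNA per cell cannot be told apart.

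Il18 and Cx3cl1 were the 2 member genes with a strain difference that passed the test, and the sequences before their annotated start are shown because the results turn on these genes. They come from RefSeq, build GRCr8, read along the gene 5′ to 3′, and cover the 250 bases before the start. The one for Il18 is chr8:59801822-59802071 on the plus strand and the one for Cx3cl1 is chr19:10242821-10243070 on the minus strand, and capitals mark a match to a motif searched for.
Il18: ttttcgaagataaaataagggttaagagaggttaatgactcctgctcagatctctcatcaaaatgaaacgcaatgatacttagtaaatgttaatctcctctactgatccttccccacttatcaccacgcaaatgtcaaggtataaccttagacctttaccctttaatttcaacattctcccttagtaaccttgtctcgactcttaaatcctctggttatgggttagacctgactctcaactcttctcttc
Cx3cl1: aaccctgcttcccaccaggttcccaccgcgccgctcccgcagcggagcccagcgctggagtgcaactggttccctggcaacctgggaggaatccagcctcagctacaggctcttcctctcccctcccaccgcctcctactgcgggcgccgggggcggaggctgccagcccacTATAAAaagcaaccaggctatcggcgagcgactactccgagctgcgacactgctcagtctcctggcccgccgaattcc
The motifs searched, on both strands, were the TATA box TATAAA, the STAT-binding motif TTCNNNGAA, the AP-1 motif TGANTCA and the kappaB consensus. The Cx3cl1 sequence held TATAAA, with its first base at position -78 where -1 is the base before the start, and held no match to the others. The Il18 sequence held no match to any of them. Of 27457 RefSeq promoters of the same length, 13.1% held TATAAA, 7.52% TTCNNNGAA, 6.36% TGANTCA and 6.41% the kappaB consensus. The Il18 sequence was 38.4% G and C and the Cx3cl1 sequence 66.4%, beside a median of 52% over all these promoters.

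The tissue carried both adrenal compartments. All 5 measured cortex markers, among them Star and Cyp11a1, and all 6 medulla markers, among them Th and Dbh, lay above background, and the intensity at which array controls for absent bacterial transcripts lie set that background. It was the 90th percentile of 15 Bacillus control probe sets on each array and ran from 304.4 to 424.2 on SHR arrays and from 229.6 to 373.0 on WKY arrays. Probe sets above it made up 64.5% to 71.0% of an SHR array and 67.8% to 75.4% of a WKY array. The arrays were hybridised in 2 runs, SHR replicates 2 and 3 in the second and all other arrays in the first, by the hybridization times in the deposited settings.

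Of the 67 genes, 38 (56.7%) lay above background, counted where at least 1 probe set was above it on all 3 arrays of at least 1 strain, against 71.0% of all 4736 genes with 1 symbol. By probe set the share was 51.5% of the 97 members and 66.2% of all 7006. Intensities of different probe sets are not on a common scale, since each binds its target with its own strength. A gene not above background here is not shown to be absent. A gene above it is likewise not shown to be expressed, since the highest control exceeded this level on every array, at 333.1 to 599.2. The 29 genes not above background included Tnf, Il6 and Il7, while Il1a, Il1b and Il18 were above it. In 9 of the 67 genes some but not all probe sets were above background. Il1a and Il1b were among these, each with 1 probe set below the level on all arrays. That of Il1a (E05489cds_s_at) read 21.6 to 80.1 and that of Il1b (E01884cds_s_at) 63.3 to 245.8. Both Il18 probe sets were above background. Tnf, the TNF gene, read 163.0, 110.9 and 110.8 in SHR and 148.7, 153.2 and 168.5 in WKY, and the probe sets of Il6, an interleukin of the acute phase response, stayed below the level on all arrays. So did that of Il7, a lymphocyte survival factor, and that of the interleukin 1 receptor antagonist gene Il1rn.

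The share of genes above background was larger for receptors than for ligands among both interleukins and chemokines, a description of counts with no test. Above background were 9 of 12 interleukin receptor genes and 9 of 16 interleukin genes, with 4 of 8 chemokine receptor genes and 5 of 13 chemokine genes. The 8 chemokine genes that did not meet the rule of all 3 arrays of a strain, most of them attractants of monocytes, neutrophils or T cells, differed among themselves. Ccl3, Ccl5, Cxcl2 and Cxcl3 were below the level on all arrays, while Ccl4 was above it on 2 SHR and 2 WKY arrays, Ccl20 on 1 and 2, Cxcl10 on 2 and 1, and Ccl11 on 1 WKY array. Cx3cr1, the fractalkine receptor of monocytes and microglia, also did not meet this rule, at 390.9, 573.1 and 199.7 in SHR and 764.1, 267.8 and 210.2 in WKY. It was above the level on 2 SHR arrays and 1 WKY array, and the strains overlapped. All 3 TGF-beta ligand genes and both colony-stimulating factor genes (Csf1 and Csf3) were above background, while Csf1r, the receptor of the macrophage growth factor Csf1, was not.

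**Figure D1:**
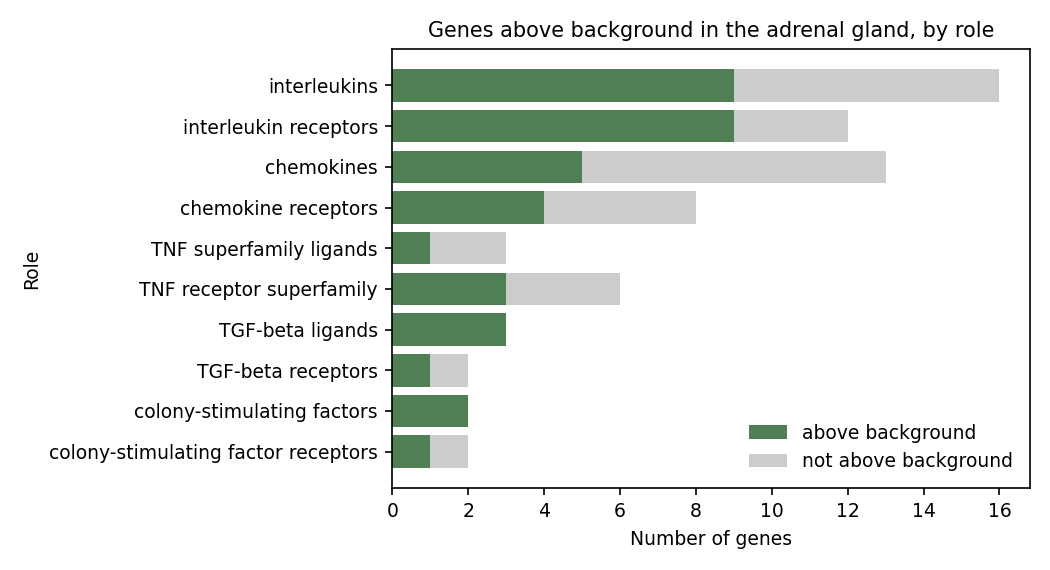
Number of genes (x axis) above background (green) and not above it (grey) for each role (y axis), in SHR and WKY adrenal glands together. Interleukin receptors had 9 of 12 genes above background and chemokines 5 of 13.

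A probe set could be above background on all arrays of 1 strain only. That held for 2 member probe sets in SHR alone and for 11 in WKY alone, and over all 7006 probe sets for 225 and 446. The level itself was set higher on SHR replicate 2 than on any other array. With each array's own 40th percentile in its place the split was 3 in SHR alone and 3 in WKY alone among members, and 342 and 295 over all. Il33 and a Ccl2 probe set (X17053cds_s_at) were in SHR alone under both levels and also with the highest control as the level. The other Ccl2 probe set (X17053mRNA_s_at) was in WKY alone under the first level and with the highest control. Il5 and Il13 were in WKY alone under all of these levels. Il33, an alarmin released by damaged barrier and stromal cells, read 629.4, 943.5 and 693.5 in SHR and 599.3, 380.1 and 296.5 in WKY. Its strains did not overlap, but the log2 difference of 0.64 ± 0.29 (SE) did not pass (limma adjusted p = 0.380). Being above background in SHR alone favours such a separation of the readings.

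The comparison of strains asked which of these transcripts differed between SHR and WKY adrenal glands, and 43 of the 97 probe sets, for 33 genes, were bright enough to be tested. Differences are SHR minus WKY on the log2(intensity + 181.5) scale, which understates those of dim probe sets. At an adjusted p under 0.05, limma called 2 of the 43, both lower in SHR, and 0 higher. Over all 5244 tested probe sets it called 1.95%, 0.877% lower and 1.07% higher. The 43 differences had a median of 0.02 with a median size of 0.215 in either direction, beside -0.007 and 0.216 over all tested probe sets. At an unadjusted p under 0.05 there were 6 members, 3 higher and 3 lower, or 14% where all tested probe sets gave 13.9%. The strains did not overlap in 9 of the 43 (6 with SHR above and 3 with SHR below), against 20.7% of all tested probe sets.

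**Figure D2:**
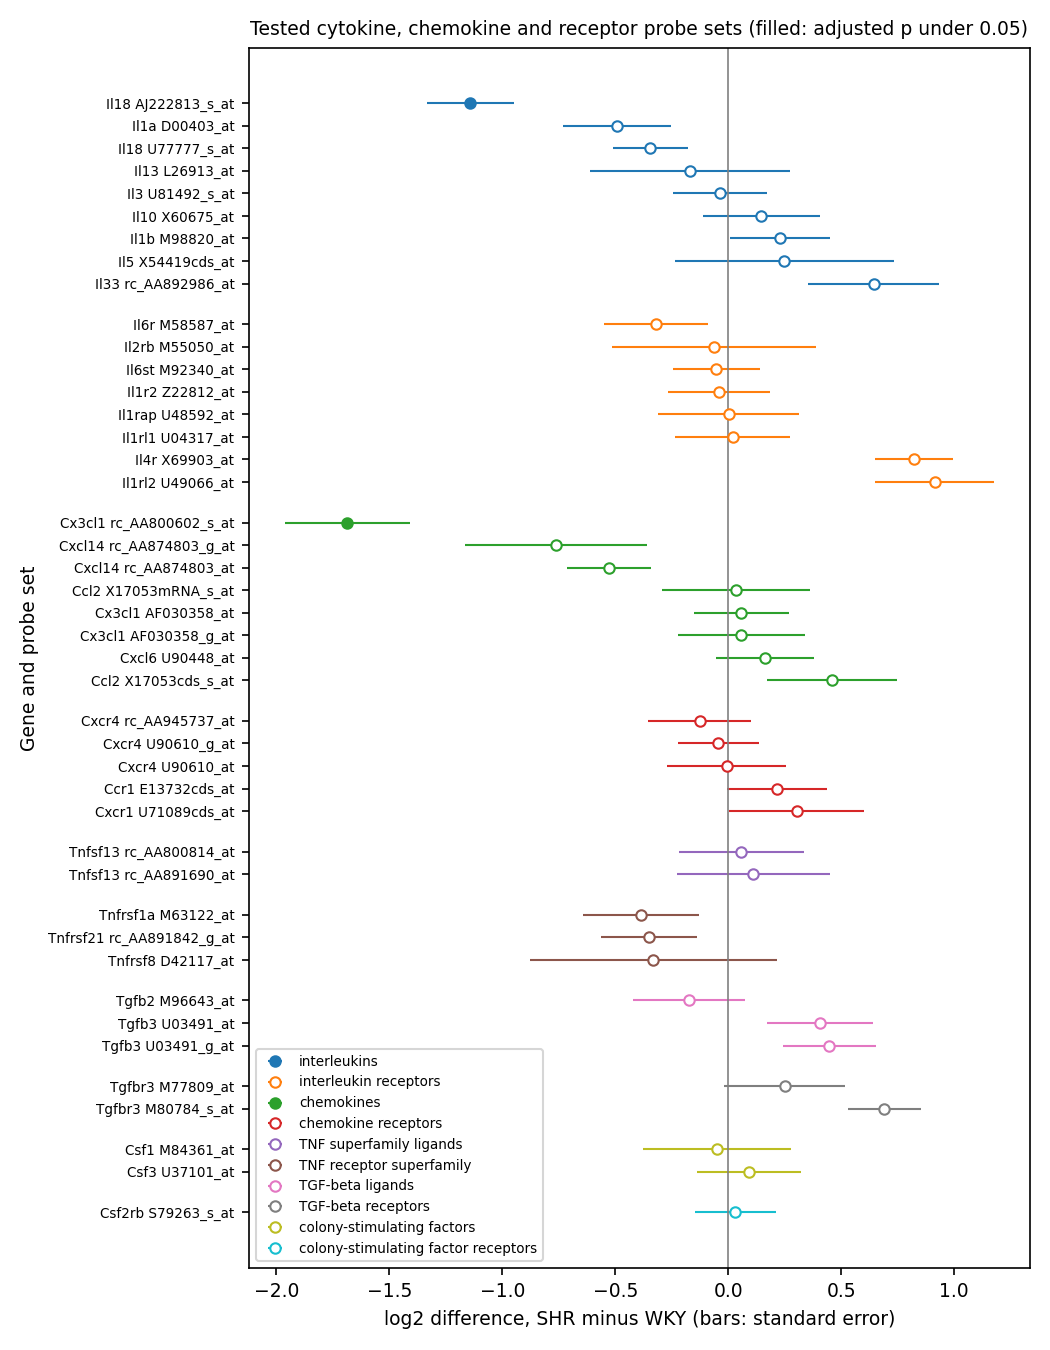
Log2 difference SHR minus WKY (x axis, bars are 1 SE) of the 43 tested member probe sets (y axis), grouped and coloured by role, filled where the adjusted p was under 0.05. The 2 filled points are Il18 at -1.14 and Cx3cl1 at -1.69, and 41 of the 43 lie within 2-fold.

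Il18 fell in SHR by 1 of its 2 probe sets. That probe set (AJ222813_s_at) read 3296.5, 4167.6 and 2795.5 in SHR and 8923.0, 6345.0 and 7949.1 in WKY. All 3 SHR arrays lay below all 3 WKY arrays, and SHR replicate 2 was the highest of its strain and WKY replicate 2 the lowest of its own. The means were 3420 ± 694 in SHR and 7739 ± 1302 in WKY (SD, n = 3 each), 2.21-fold lower in SHR on the fitted scale, with a log2 difference of -1.14 ± 0.19 (SE, limma adjusted p = 0.0297). The other Il18 probe set (U77777_s_at) read 3925.9, 5143.2 and 3888.4 in SHR and 5968.3, 4856.9 and 5696.9 in WKY. There SHR replicate 2 exceeded WKY replicate 2, so that the strains overlapped, and the difference was -0.34 ± 0.17 (limma adjusted p = 0.406, 95% interval -0.73 to 0.04).

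Cx3cl1 fell in SHR by 1 of its 3 probe sets. That one (rc_AA800602_s_at) read 862.0, 718.8 and 568.1 in SHR and 1743.6, 3333.1 and 3293.7 in WKY. The strains did not overlap, although WKY replicate 1 stood well under the other WKY arrays. The means were 716 ± 147 in SHR and 2790 ± 907 in WKY (SD, n = 3 each), 3.22-fold lower in SHR on the fitted scale, with a log2 difference of -1.69 ± 0.28 (SE, limma adjusted p = 0.0271). A second probe set (AF030358_at) read 3657.8, 3258.4 and 3184.2 in SHR and 2411.0, 4265.4 and 3234.0 in WKY, and the third (AF030358_g_at) read 816.8, 1528.4 and 819.0 in SHR and 843.2, 1256.9 and 844.6 in WKY. Both showed overlapping strains and a difference of 0.06, with SEs of 0.21 and 0.28 and 95% intervals of -0.43 to 0.55 and -0.59 to 0.71. These last probe sets share a name stem and so the sequence they were designed from, and they are not independent of each other.

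**Figure D3:**
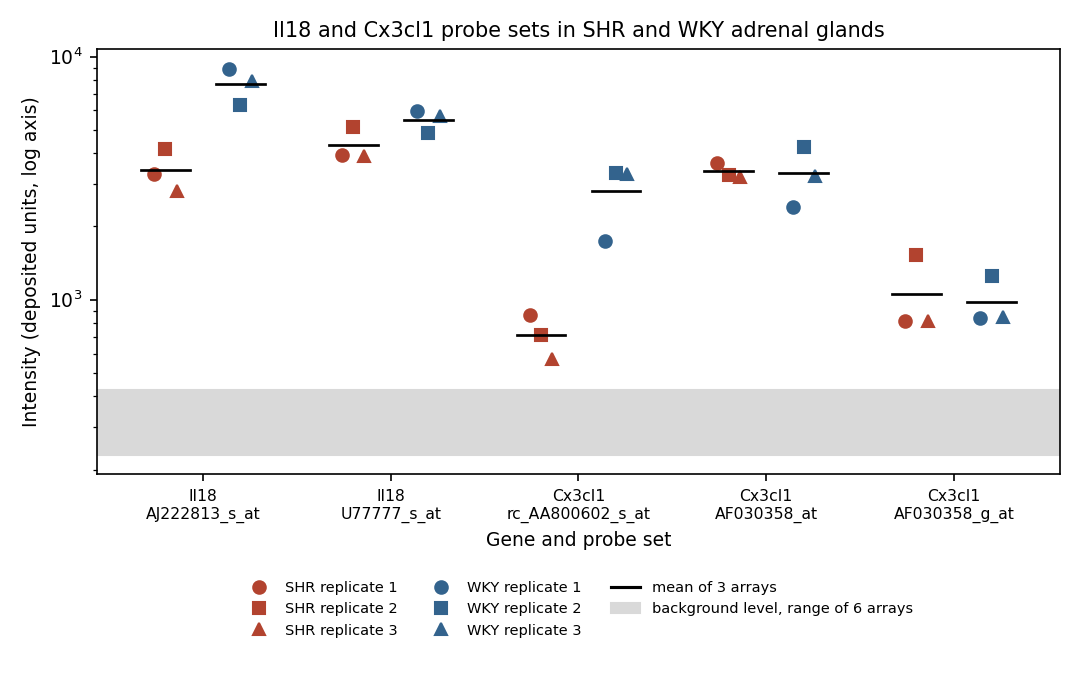
Deposited intensity (log axis) of each Il18 and Cx3cl1 probe set (x axis) on every array, SHR in red and WKY in blue, with a line at each mean of 3 arrays and the range of background levels in grey. For AJ222813_s_at of Il18 and rc_AA800602_s_at of Cx3cl1 every SHR array lies below every WKY array, and for the other 3 probe sets the strains overlap.

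The probe sets of each gene were set against each other within an array, so that a common array effect cancels. For Il18 the log2 value of AJ222813_s_at minus that of U77777_s_at was -0.24, -0.29 and -0.45 in SHR and 0.57, 0.37 and 0.47 in WKY. The strain means of this contrast differed by -0.80 and did not overlap. For Cx3cl1 the called probe set minus AF030358_at gave -1.88, -1.93 and -2.17 in SHR and -0.43, -0.34 and 0.03 in WKY, a difference of -1.75. The first probe set of each contrast was taken because it was called, so these values describe the disagreement between probe sets and carry no test. Which part of each transcript a probe set reads was not analysed here.

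Both calls were lost when 1 SHR array carried the contrast or when most single arrays were left out, with differences of like size. With a term for hybridization run, the log2 difference was -1.17 for Il18 and -1.46 for Cx3cl1 (limma adjusted p = 0.248 and 0.292), within the first run alone it was the same (0.308 and 0.432), and of the 6 fits without 1 array Il18 passed only without WKY replicate 2 and Cx3cl1 only without WKY replicate 1, at -1.29 to -1.01 and -1.97 to -1.54 over the 6 fits. Markers of other cells were measured beside them, each by its brightest tested probe set. Over all 3144 genes read this way limma called 52, and 409 (13%) had an unadjusted p under 0.05. The strains did not overlap in 662 of these genes. Of 8 fibroblast and capsule markers 4 fell in SHR (Col1a1, Col1a2, Col3a1 and Fn1). Over all 8 the median was -0.99, with summed intensities of 79941 to 99038 in SHR and 105944 to 122067 in WKY. Dcn was lower and not called (-1.45), and Mgp, Sparc and Pdgfra stood the other way, at 0.30, 0.09 and 0.04. Of 5 adipocyte markers 1 fell, Cfd (-2.00 ± 0.35, SE), with summed intensities of 29425 to 43247 in SHR and 30693 to 62202 in WKY. Fabp4 and Ucp1 were lower and not called (-1.52 and -0.33), with Lpl at 0.38 and Lep at 0.004. Of 6 medulla markers 1 fell, Dbh (-1.29 ± 0.15), and 3 were lower at an unadjusted p under 0.05 with no overlap (Dbh, Pnmt at -0.57 and Slc18a1 at -0.82). The median of all 6 was -0.33, and the summed intensities of all 6, at 38357 to 49586 in SHR, lay below those of 51239 to 58954 in WKY. Of the other medulla markers, Th and Chgb were at -0.02 and -0.08, and Ddc was at 0.14. Limma called 0 of 11 tested leukocyte markers (1 at an unadjusted p under 0.05, Cd37), with a median of -0.25 and sums over the 20 on the array of 16140 to 21976 in SHR and 18604 to 30418 in WKY. Of these 20 markers 11 were above background, among them Lyz2, Cd14, Ptprc, Cd48, Cd53 and Cd3g, and 9 were not, among them Itgam, Cd8a, S100a8, S100a9 and Cd2. Limma also called 0 of 6 endothelial markers (0 at an unadjusted p under 0.05) and 0 of 5 cortex markers (likewise 0), with medians of -0.10 each. Whether these markers have a part in the Il18 and Cx3cl1 differences was not tested.

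Among the other interleukins 0 of 7 tested genes passed limma's test, and none did at an unadjusted p under 0.05. Il1a, an alarmin of the interleukin 1 family, read 1320.8, 704.7 and 860.3 in SHR and 1511.6, 1353.0 and 1302.9 in WKY, with SHR replicate 1 inside the WKY range. Its difference was -0.49 ± 0.24 (SE, limma adjusted p = 0.412), and -0.06 within the first hybridization run. Il3, a growth factor of blood cell precursors, was at -0.04 ± 0.21. Il5 and Il13, cytokines of type 2 immunity, turned on single arrays: Il5 read 298.9 on SHR replicate 1 against 1390.6 and 1610.6 on the other SHR arrays, and Il13 read 308.5 on SHR replicate 2 against 1590.8 and 1159.4. Il5 and Il13 were chosen after their values were seen, for this spread. Il1b, an early inflammatory cytokine, was likewise chosen and read 783.1, 872.7 and 662.4 in SHR and 629.5, 647.9 and 611.7 in WKY by 1 probe set (M98820_at). Its strains did not overlap, by a small margin, and its difference was 0.23 ± 0.22 (limma adjusted p = 0.703). Its other probe set above background (M98820_g_at) was too dim to be tested and stood the other way, at 384.0, 137.4 and 475.0 in SHR and 438.8, 1338.6 and 594.7 in WKY, with overlap. It met the background rule in WKY alone, which favours higher WKY readings.

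Interleukin receptors gave the largest positive differences of all member probe sets, and limma called 0 of 8 (2 at an unadjusted p under 0.05, both higher in SHR). Il4r, the receptor chain shared by interleukins 4 and 13, read 20855.7, 32252.0 and 27015.3 in SHR and 16129.8, 15240.9 and 13145.1 in WKY. Its strains did not overlap, the 3 WKY arrays lay close together, and the difference was 0.82 ± 0.17 (SE, limma adjusted p = 0.0626), which passed only without SHR replicate 1 (0.99, adjusted p = 0.0482) and was 0.49 within the first hybridization run. Il1rl2, the receptor of the interleukin 36 cytokines, read 1996.9, 2019.8 and 1839.4 in SHR and 723.1, 765.9 and 1511.2 in WKY. Here WKY replicate 3 stood nearer to SHR than to its own strain, and the difference of 0.91 ± 0.26 (adjusted p = 0.155) passed only without that array (1.20, adjusted p = 0.0457). Of the ligands of Il4r on the array, no Il4 probe set was above background on all arrays of a strain, and the Il13 probe set was so in WKY and on 2 of 3 SHR arrays. Il2rb, the shared beta chain of the interleukin 2 and 15 receptors, was at -0.06 ± 0.45, with both strains spread widely. Il1r2, the decoy receptor of interleukin 1, was at -0.04 ± 0.23 (limma adjusted p = 0.961), and no probe set of Il1r1, the signalling receptor, was above background.

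**Figure D4:**
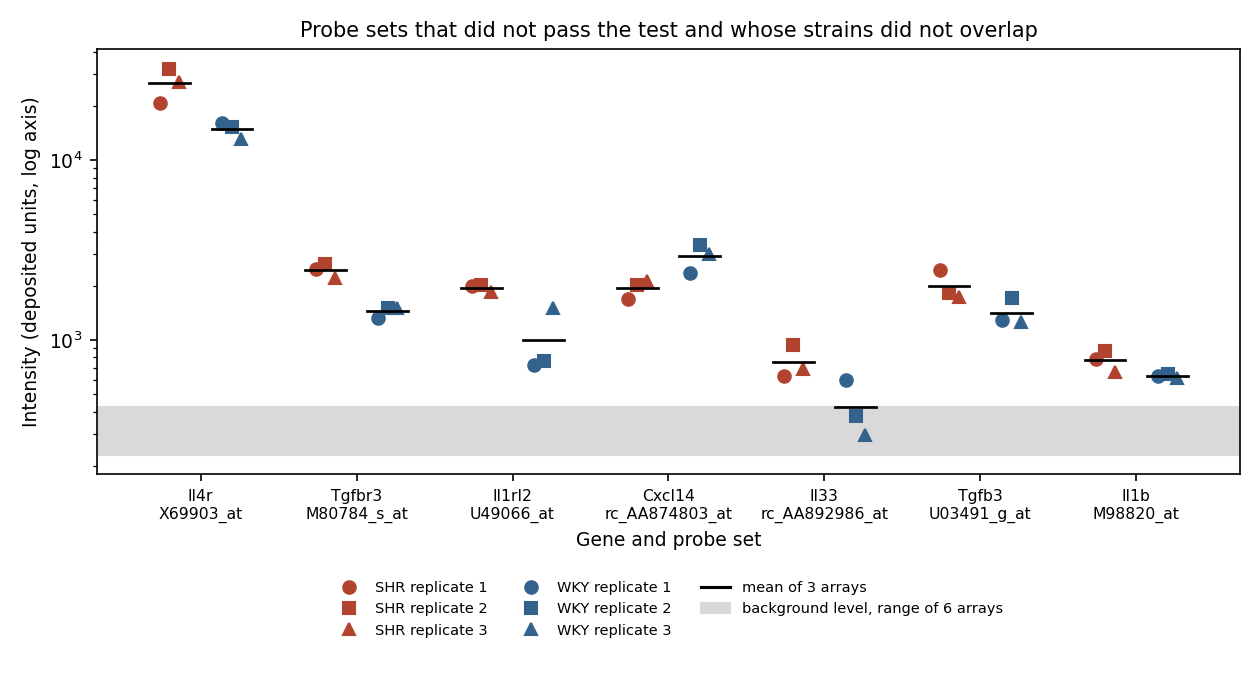
Deposited intensity (log axis) on every array of the 7 tested member probe sets whose strains did not overlap but which did not pass the test, SHR in red and WKY in blue, with lines at the means of 3 arrays and the range of background levels in grey. Il4r, Tgfbr3, Il1rl2, Il33, Tgfb3 and Il1b have all SHR arrays above all WKY arrays, and Cxcl14 has them below.

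Chemokines other than Cx3cl1 did not pass. Cxcl14, a chemokine made by epithelial and stromal cells, had negative differences in both of its probe sets. The first (rc_AA874803_at) read 1698.4, 2027.9 and 2135.7 in SHR and 2371.7, 3357.4 and 3019.5 in WKY, with no overlap, and its difference of -0.53 ± 0.18 (SE) did not pass (limma adjusted p = 0.246). The second (rc_AA874803_g_at) was at -0.76 ± 0.40, and SHR replicate 1 at 611.3 lay well under the other SHR arrays at 2182.6 and 2020.5. Ccl2, the monocyte attractant, stood at 0.46 ± 0.29 in 1 probe set and 0.03 ± 0.33 in the other (adjusted p = 0.528 and 0.979). Cxcl13, the B cell attractant, was too dim to be tested and chosen after its values were seen: it read 358.8, 277.1 and 244.7 in SHR and 411.5, 1786.1 and 363.7 in WKY, where WKY replicate 2 alone was high.

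Chemokine receptors had small differences, with limma calling 0 of the 5 tested probe sets (0 at an unadjusted p under 0.05). Cxcr4, the receptor of Cxcl12 that holds blood cell precursors in their niches, was measured by 3 probe sets at -0.13, -0.04 and -0.007, with SEs of 0.18 to 0.26. The brightest of them (U90610_g_at) read 6250.0, 6152.5 and 5610.6 in SHR and 4907.3, 7647.5 and 6300.7 in WKY, the SHR arrays lying inside the range of the WKY arrays. Its 95% interval of -0.45 to 0.37 lies inside a 2-fold difference in either direction. Cxcr1, an interleukin 8 type receptor of neutrophils, was at 0.30 ± 0.30.

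In the TGF-beta family, which restrains immune cells and drives matrix production, the positive differences were in Tgfbr3 and Tgfb3, and limma called 0 of 5 tested probe sets (1 at an unadjusted p under 0.05). Tgfbr3, which encodes the co-receptor betaglycan that also binds inhibin, read 2493.8, 2638.1 and 2218.4 in SHR and 1333.2, 1498.1 and 1509.3 in WKY by 1 probe set (M80784_s_at). The strains were far apart relative to their spread, at 0.69 ± 0.16 (SE, limma adjusted p = 0.0890), but the other probe set overlapped and stood at 0.25 ± 0.27. Tgfb3 stood at 0.40 ± 0.23 and 0.45 ± 0.21 in its 2 probe sets (adjusted p = 0.485 and 0.390), which share the sequence they were designed from. Tgfb2 was at -0.17 ± 0.25. Tgfb1, another ligand of the family, was too dim to be tested and is named after its values were seen, with WKY replicate 2 at 1240.2 and the other 5 arrays between 315.4 and 432.7.

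TNF family members and colony-stimulating factors gave no calls by limma (0 of 8 probe sets, and 0 at an unadjusted p under 0.05). Tnfrsf1a, the main TNF receptor of most tissues, read 7808.6, 6758.1 and 4857.0 in SHR and 5847.1, 9259.9 and 10763.3 in WKY, with overlap. Its difference was -0.39 ± 0.26 (SE, limma adjusted p = 0.559), and -0.10 within the first hybridization run. Tnfrsf21, known as death receptor 6, was at -0.35 ± 0.21 and Tnfrsf8, which encodes CD30, at -0.33 ± 0.55. Tnfsf13, which encodes the B cell survival factor APRIL, was at 0.06 ± 0.27 and 0.11 ± 0.34 in its tested probe sets. Csf1 was at -0.05 ± 0.33, Csf3, the granulocyte growth factor, at 0.09 ± 0.23 and Csf2rb, the shared receptor chain of interleukins 3 and 5, at 0.03 ± 0.18.

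The median SE of the tested members was 0.25, beside 0.22 over all tested probe sets. Of the 97 member probe sets, the highest reading fell on SHR replicates 1, 2 and 3 in 15, 13 and 14 and on WKY replicates 1, 2 and 3 in 11, 24 and 20. The lowest fell on SHR replicates 1, 2 and 3 in 11, 22 and 17 and on WKY replicates 1, 2 and 3 in 32, 7 and 8. These readings were not counted over all probe sets, so the pattern is not shown to be particular to the members. Of the 8 genes with more than 1 tested probe set, 7 had the same sign in all of them and 1, Cx3cl1, did not. Only the sign was compared, so Il18 is among the 7 with differences of -1.14 and -0.34. The Ccl2, Cxcl14 and Tgfb3 pairs each share a name stem and are not independent. The same holds for U90610_at and U90610_g_at of Cxcr4, and the Cxcr4 differences of -0.13 to -0.007 were small beside their SEs.

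Genes that carry or answer cytokine signals were read from a list of their own, each by its brightest tested probe set. The list held 65 genes, and 29 of them were on the array with 1 symbol. Of 22 tested genes of cytokine signal transduction limma called 0 (4 at an unadjusted p under 0.05, 1 higher and 3 lower), with a median of -0.07 beside -0.01 over all 3144 genes read this way. Of those 3144 it called 52, and 409 had an unadjusted p under 0.05 (198 higher and 211 lower). That share was 13%, and 18.2% in the list. Irf1, an interferon-response transcription factor, read 1829.9, 1262.8 and 1105.3 in SHR and 2983.9, 2974.1 and 2618.2 in WKY, and did not overlap between strains. Its difference of -0.97 ± 0.21 (SE) had a limma adjusted p of 0.0659 and passed only without SHR replicate 1 (-1.15, adjusted p = 0.0496), while within the first hybridization run it was -0.59. Nfkbia, which encodes the inhibitor that holds NF-kappaB in the cytoplasm, read 3165.1, 2965.3 and 2227.7 in SHR and 3998.0, 5940.2 and 5088.2 in WKY (-0.80 ± 0.20, adjusted p = 0.108), and Nfkb1, an NF-kappaB subunit gene, was at -0.57 ± 0.18 (0.193). Irf7, which drives type I interferon genes, stood the other way, at 1096.8, 2102.2 and 2190.0 in SHR and 417.5, 888.0 and 412.5 in WKY (1.40 ± 0.34, limma adjusted p = 0.0991, and 0.82 within the first run). Casp1, which encodes the enzyme that cuts the interleukin 18 precursor and is named after its value was known, was at -0.19 ± 0.15 (0.622).

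A list of cytokine and receptor genes whose names fall outside the pattern held 38 genes, and 26 of them were on the array with 1 symbol. Of the 11 tested, limma called 0 (1 at an unadjusted p under 0.05), with a median of 0.007. The share at an unadjusted p under 0.05 was 9.09%, beside 13% over all genes read by their brightest tested probe set. That 1 was Mif, the macrophage migration inhibitory factor, at 42186.2, 36112.6 and 38220.1 in SHR and 25239.9, 29952.3 and 26938.9 in WKY. All SHR arrays lay above all WKY arrays, at 0.50 ± 0.11 (SE, limma adjusted p = 0.0786). Pf4, a platelet chemokine, was at -0.55 ± 0.25, Ifngr1, an interferon gamma receptor chain, at -0.68 ± 0.38 and Lif, an interleukin 6 family cytokine, at 0.59 ± 0.37, and none of these 3 passed (adjusted p of 0.389 to 0.523).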

How the data were processed

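Adrenal RNA was hybridised to 6 Affymetrix Rat Genome U34 arrays of 1 colour, 3 SHR and 3 WKY, placed and numbered by their titles. The authors deposited 1 linear intensity per probe set and array. The sources used here give neither the algorithm nor the scaling behind it. The authors also deposited each array's settings, from which the module and runs set apart by over 60 minutes were taken. After 59 control probe sets were left out, values were used as log2(intensity + 181.5), the 20th percentile of all values, and probe sets with a mean above the 40th percentile were tested. Strains were compared with limma 3.58.1 in R 4.3.3 (lmFit, eBayes with an intensity trend, two-sided, Benjamini-Hochberg over 5244 probe sets, threshold 0.05). Symbols came from the array's annotation table, updated through RefSeq for GRCr8, where all 97 member probe sets matched, as did 49 of 67 genes in the promoter table. Members, lists and tests were chosen with earlier results of these data known. Named genes were all Il18 and Cx3cl1 probe sets, those called, the 8 largest differences each way, the 10 smallest p, the 3 brightest of each role and 4 of each pathway list, and further genes were named after their values were seen. On simulated data for this comparison (5 tables of 5244 probe sets), 6.87% of log2 changes of 0.5, 43.6% of 1 and 85.5% of 2 were called, and 4.85% of calls were false. The simulated noise was independent between arrays with no effect of hybridization run, and only bright probe sets were changed. These shares therefore may not hold for the arrays measured. Alternatives were other scalings, pseudocounts, filters, variance models, blocks and levels of background, and each array left out. The number of arrays limits the precision.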

Additional observations from a re-analysis of the deposited data

How the results depend on the processing

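The 2 member calls, Il18 and Cx3cl1, kept their place with quantile normalization, scaling to a common median, a pseudocount of 1 or of 4 times the main one, no filter (all 97 probe sets tested), a filter at the 60th percentile and robust eBayes. Member calls came to 1 with eBayes without a trend (Cx3cl1), and to 0 with a run term, with only the first run's arrays and with the module as a block, while calls over all probe sets came to 60, 20, 1 and 46. With the replicate number as a block (replicate block) they came to 0 and 53, with Il18 at -1.14 and Cx3cl1 at -1.69 as before. Same-numbered arrays correlated at 0.001 to 0.071 in their deviations from the strain means, and SHR and WKY arrays of unlike number at -0.054 to 0.048. With so few arrays these values cannot settle whether the numbers pair the samples. Without 1 array in turn there were 0 to 1 member calls, 36 to 59 over all and 0 to 1 in the pathway lists. Fits on fewer arrays or with more terms have fewer residual degrees of freedom, and why else these counts changed was not tested. Genes above background numbered 32 with the highest control or the array's 40th percentile as the level, 16 with its 60th percentile, 28 with all 6 arrays required and 38 to 43 without 1 array. Of the named differences, 49 of the alternative values changed sign, all of probe sets that passed under neither setting, and 0 called ones did.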

Other observations

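The array also carried control probe sets for mouse interleukins 2, 4 and 10, which were no members. On the 6 arrays they read between 23.2 and 304.8, and on each array all 3 were below that array's background level. Of the 7 member probe sets above background but too dim to be tested, those of Cxcl13, Il1b (M98820_g_at) and Tgfb1 had their highest reading on WKY replicate 2, at 1786.1, 1338.6 and 1240.2. The other WKY arrays read 363.7 and 411.5 for Cxcl13, 438.8 and 594.7 for this Il1b probe set, and 368.9 and 376.6 for Tgfb1. These 3 were chosen after their values were seen. All 7 met the background rule in WKY alone, which favours a high WKY reading. The probe sets of Ccr3, Il9r, Il15 (U69272_at) and Il1a (D00403_g_at) had their highest reading on WKY replicate 3, at 675.3, 705.2, 925.5 and 1040.5.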
